A study of Homo sapiens with 14 samples.

Results

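Transcripts of 10 cytokine genes were followed in RNA of LY2 cells, an endocrine-resistant line derived from MCF-7 breast cancer cells, after knockdown of the steroid receptor coactivator SRC-1. The genes were CSF1, IL6, TNF, LIF, IL11, IL1A, IL1B, IL7, IL15 and IL18, and all 17 Affymetrix HG-U133 Plus 2.0 probe sets annotated to 1 of these 10 genes were taken, of 54613 probe sets analysed on 14 arrays. All cells had been propagated in 10 nM 4-hydroxytamoxifen, kept for 72 h without it, transfected with 40 nM siRNA, and treated 24 h later for 2 h. The 4 groups were SRC-1 siRNA with 100 nM 4-hydroxytamoxifen (SRC1-siRNA tamoxifen, 2 arrays, replicates 1 and 3), SRC-1 siRNA with 0.01% ethanol as vehicle (SRC1-siRNA untreated, 4 arrays), scrambled siRNA with 100 nM 4-hydroxytamoxifen (control-siRNA tamoxifen, 4 arrays) and scrambled siRNA with vehicle (control-siRNA untreated, 4 arrays). They answer whether the level of each cytokine transcript differs with the knockdown, with 2 h of tamoxifen, or with both together. The model is 1 cell line and 1 siRNA product per arm, and the labels call the replicates biological without saying whether they came from separate cultures, so p-values measure only the spread between these arrays.

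Cytokines are secreted proteins through which cells signal to neighbours. CSF1 (colony-stimulating factor 1) drives the survival and recruitment of macrophages and has been reported as a target gene of SRC-1 in mammary tumour cells, where SRC-1, encoded by NCOA1, acts as a coactivator of oestrogen receptor and other transcription factors. IL-6, LIF and IL-11 signal through receptor complexes that share the gp130 chain, TNF signals largely through NF-κB, IL-7 and IL-15 use the common gamma chain on lymphocytes, and IL-1α, IL-1β and IL-18 belong to the IL-1 family, of which IL-1β and IL-18 are made as precursors that caspase-1 cuts.

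NCOA1 itself was lower on all 4 of its probe sets, with changes of −1.10 to −1.40 log2 units in untreated cells (limma adjusted p between 6.39e-04 and 0.00184) and of −1.11 to −1.50 log2 units in tamoxifen-treated cells (limma adjusted p between 0.00196 and 0.00589). All values are log2 signals as deposited. The median of the probe-set means was 3.47, 44.1% of all values lay under 3, and the densest signals lay between 1.9 and 2.0, so a signal near 2 is at the floor of the array. A level is compared here only within a probe set, and the number of arrays, 2 in the smallest group, limits the precision. All 12 luminal epithelial markers lay above the median of 3.47 in every group. The 13 leukocyte markers measured averaged 2.34 to 2.51 per array in SRC1-siRNA tamoxifen cells, 2.36 to 2.45 in SRC1-siRNA untreated cells, 2.30 to 2.34 in control-siRNA tamoxifen cells and 2.32 to 2.39 in control-siRNA untreated cells, all near the floor. Of the 13, 2 had a group mean above the median of 3.47 in each SRC1-siRNA group, 0 in control-siRNA tamoxifen cells and 1 in control-siRNA untreated cells. With the knockdown 0 passed in untreated cells, beside 10.4% of all probe sets, and 1 in tamoxifen-treated cells, beside 13.5%. It was ITGAM, which averaged 3.65 in SRC1-siRNA tamoxifen cells and 2.79 in control-siRNA tamoxifen cells (limma adjusted p = 0.0253, and 0.115 with the number of the replicate added to the model).

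The SRC-1 knockdown was accompanied by higher signals of IL15, IL6, TNF and CSF1 in untreated cells, and of IL15, LIF, TNF, IL18 and CSF1 in tamoxifen-treated cells. In untreated cells 6 of the 17 cytokine probe sets rose and 0 fell at a limma adjusted p under 0.05, where 10.4% of all probe sets were called, 4.99% higher and 5.36% lower. In tamoxifen-treated cells 6 rose and 1 fell, where 13.5% of all probe sets were called, 5.76% higher and 7.7% lower. The median change over the 17 cytokine probe sets was 0.27 log2 units in untreated cells and 0.15 in tamoxifen-treated cells, beside −0.0038 and −0.024 over all probe sets. Over the 10 genes, each by its brightest probe set, it was 0.75 and 0.59, a choice of probe set not made for the other genes. All knockdown arrays lay above the control arrays for 5 of the 17 probe sets in untreated cells and for 7 in tamoxifen-treated cells, where this held for 7.92% and 14.9% of all probe sets, and all lay below for 1 and 2, where it held for 8.31% and 21.1%. The tamoxifen-treated count rests on few arrays: it was 1 without replicate 1 of the SRC1-siRNA tamoxifen group, 4 without replicate 1 and 4 without replicate 4 of the control-siRNA tamoxifen group, 0 without the arrays numbered 1 and 3 without the arrays numbered 3. When the replicate number was added to the model as a factor (number-adjusted fit) it was also 1, that of TNF, where 2.24% of all probe sets were called, and in untreated cells it was 5, where 3.94% were. Because whole cultures were lysed, more cells making a transcript and more transcript per cell cannot be told apart.

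**Figure D1:**
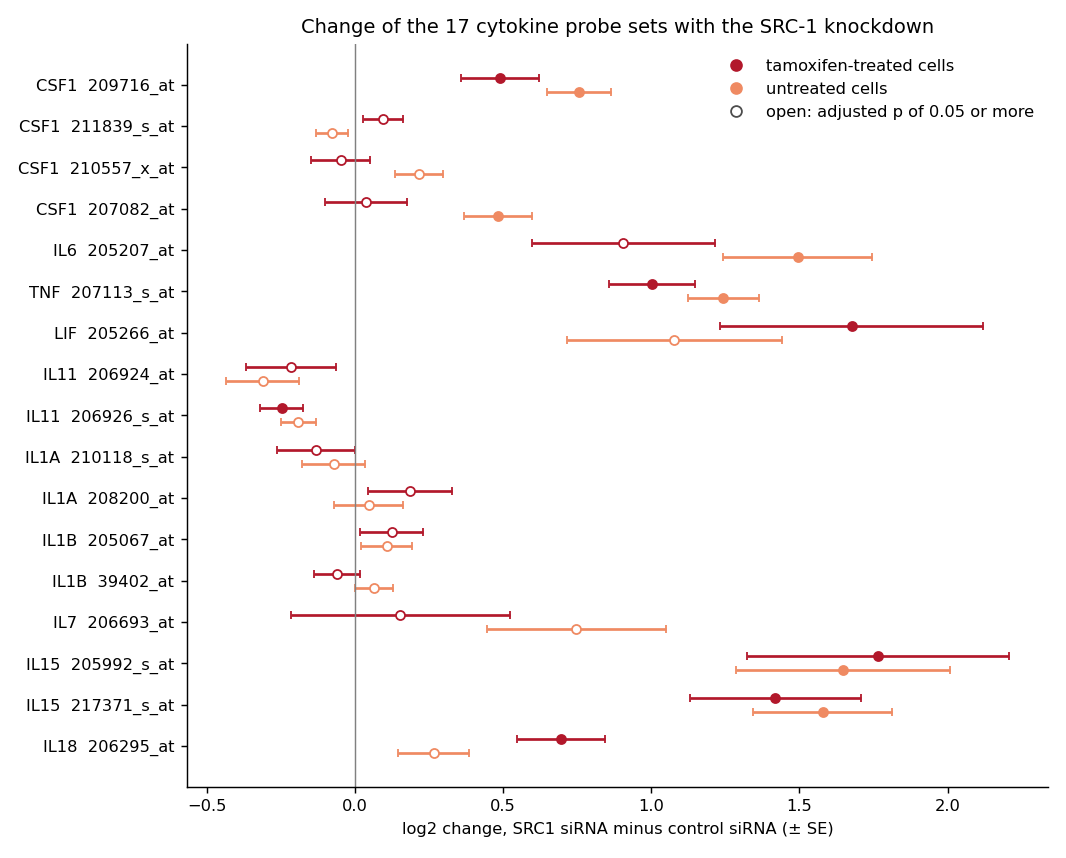
Change of each of the 17 cytokine probe sets with the SRC-1 knockdown, on the x axis as SRC1 siRNA minus control siRNA in log2 units (± SE from limma), with tamoxifen-treated cells above untreated cells for each probe set. Filled points passed an adjusted p under 0.05. The IL15 probe sets lay between 1.42 and 1.77, those of TNF at 1.0 and 1.24, and both IL11 probe sets below 0 in both treatments.

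CSF1 (chr1:109910506-109930992, GRCh38.p14) had 4 probe sets, and they did not move together. The brightest, 209716_at, gave log2 signals of 3.58 and 3.45 in SRC1-siRNA tamoxifen cells, 3.62, 3.42, 3.43 and 3.69 in SRC1-siRNA untreated cells, 2.89, 3.10, 3.17 and 2.95 in control-siRNA tamoxifen cells, and 2.62, 2.99, 2.97 and 2.55 in control-siRNA untreated cells. Every array with SRC-1 siRNA was above every array with scrambled siRNA, and 11 of the 14 arrays were below the median signal of 3.47. In untreated cells the change was 0.76 ± 0.11 log2 units (SE), or 1.69-fold (limma adjusted p = 0.00121). In tamoxifen-treated cells it was 0.49 ± 0.13 (limma adjusted p = 0.0282), and that call failed under 10 of 25 alternatives. Among them were the number-adjusted fit (limma adjusted p = 0.120), array weights (adjusted p = 0.0521) and leaving out either SRC1-siRNA tamoxifen array. Leaving out replicate 1 or 4 of the control-siRNA tamoxifen group also ended the call (limma adjusted p = 0.0577 and 0.0529). The other CSF1 probe sets lay nearer the floor, below the median signal on all 14 arrays. Of them 207082_at also rose in untreated cells, by 0.48 ± 0.11 log2 units (limma adjusted p = 0.0169), although its lowest SRC1-siRNA array, at 2.27, was within the control arrays, whose highest was 2.29. That call ended in the number-adjusted fit (limma adjusted p = 0.0651), and in tamoxifen-treated cells the same probe set changed by 0.04 (adjusted p = 0.886). The 2 remaining probe sets gave 0.22 (210557_x_at, limma adjusted p = 0.108) and −0.08 (211839_s_at, adjusted p = 0.416) in untreated cells. Taking the mean of all 4 probe sets, the change was 0.14 in tamoxifen-treated cells (limma adjusted p = 0.220) and 0.34 in untreated cells (adjusted p = 0.00347), less than the 0.76 of the brightest alone.

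IL6 and TNF, cytokines of the acute inflammatory response, were both higher on every array with SRC-1 siRNA than on any with scrambled siRNA of the same treatment. RefSeq promoters (build GRCh38.p14) were given for 5 of the 10 genes, IL6, TNF, IL11, IL1A and IL1B, as 250 bases before and 50 bases from the start site. Those of IL6 and TNF are shown because both transcripts rose in untreated cells. That of IL11 is shown because its mean changes lay below 0, although its brightest probe set did not pass. The sequences shown were thus picked by the changes. The windows were searched on both strands for the NF-κB motif (named kappa B), the interferon-stimulated response element (GAAA and GAAA, 2 bases apart), the STAT motif TTCNNNGAA (GAS), the AP-1 motif TGANTCA and the oestrogen response element (GGTCA and TGACC, 3 bases apart), and matches are in capitals. The 250 bases before the start are printed 5′ to 3′ on the gene's strand, for IL6 chr7:22726950-22727199 (plus strand), for TNF chr6:31575315-31575564 (plus strand) and for IL11 chr19:55370464-55370713 (minus strand).
IL6: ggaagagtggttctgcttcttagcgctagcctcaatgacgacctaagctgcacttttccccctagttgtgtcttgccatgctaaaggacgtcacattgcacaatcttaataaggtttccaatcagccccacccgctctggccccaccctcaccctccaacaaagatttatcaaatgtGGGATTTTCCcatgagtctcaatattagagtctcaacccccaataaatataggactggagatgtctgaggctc
TNF: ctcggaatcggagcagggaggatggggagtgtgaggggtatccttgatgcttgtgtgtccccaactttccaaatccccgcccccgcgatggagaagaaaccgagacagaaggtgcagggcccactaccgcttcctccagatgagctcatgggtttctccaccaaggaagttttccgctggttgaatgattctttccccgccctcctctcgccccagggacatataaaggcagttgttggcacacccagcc
IL11: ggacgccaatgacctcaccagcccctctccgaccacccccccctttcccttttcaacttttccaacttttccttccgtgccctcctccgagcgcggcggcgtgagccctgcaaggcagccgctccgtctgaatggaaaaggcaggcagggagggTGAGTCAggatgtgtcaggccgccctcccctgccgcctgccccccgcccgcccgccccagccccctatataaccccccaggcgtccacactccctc

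The IL6 window held 1 kappa B match, GGGATTTTCC, which begins 73 bases before the start site, and 11.3% of the 35116 RefSeq promoters of this length held a kappa B match. The IL11 window held 1 AP-1 match, TGAGTCA, 96 bases before the start, a motif found in 7.71% of promoters. None of the motifs searched was in the TNF window, which says only that these letters were not there. Matches to the interferon-stimulated response element, GAS and the oestrogen response element, present in 3.57%, 7.66% and 0.057% of promoters, were in neither the IL6 nor the IL11 window. Of the genes whose changes did not pass, IL1A had 2 AP-1 matches in each of its 2 overlapping windows and IL1B had 1 GAS match.

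IL6 (chr7:22727200-22731998) gave log2 signals of 4.79 and 3.97 in SRC1-siRNA tamoxifen cells, 5.52, 4.58, 4.79 and 4.49 in SRC1-siRNA untreated cells, 3.02, 3.60, 3.70 and 3.57 in control-siRNA tamoxifen cells, and 2.85, 3.60, 3.61 and 3.34 in control-siRNA untreated cells. The knockdown arrays did not overlap the control arrays in either treatment, and replicate 1 was the highest of the knockdown arrays and the lowest of the control arrays in both. In untreated cells IL6 averaged 4.84 ± 0.47 with SRC-1 siRNA and 3.35 ± 0.36 with control siRNA (SD, n = 4 each), a change of 1.49 ± 0.25 log2 units (SE) or 2.82-fold (limma adjusted p = 0.00285). In tamoxifen-treated cells the change of 0.91 ± 0.31 did not pass (limma adjusted p = 0.0685), and the difference between the changes was itself not past the threshold (interaction −0.59, limma adjusted p = 0.472). In tamoxifen-treated cells the call failed under 22 of 25 alternatives. The change was 0.49 without replicate 1 of the SRC1-siRNA tamoxifen group (limma adjusted p = 0.494) and 0.34 without the arrays numbered 1 (adjusted p = 0.208), and it passed without replicate 3 of that group (change 1.32, adjusted p = 0.0495), without replicate 1 of the SRC1-siRNA untreated group (adjusted p = 0.0374) and with a trended, robust variance (adjusted p = 0.0496).

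TNF (chr6:31575565-31578336) gave 3.74 and 3.61 in SRC1-siRNA tamoxifen cells, 4.06, 4.21, 3.85 and 3.56 in SRC1-siRNA untreated cells, 2.53, 2.56, 2.81 and 2.80 in control-siRNA tamoxifen cells, and 2.55, 2.66, 2.80 and 2.70 in control-siRNA untreated cells. All control arrays lay between 2.53 and 2.81, below the median signal, and all 6 knockdown arrays lay above it. TNF rose by 1.24 ± 0.12 log2 units in untreated cells (2.37-fold, limma adjusted p = 2.25e-04) and by 1.0 ± 0.15 in tamoxifen-treated cells (2.00-fold, limma adjusted p = 0.00164). It was the cytokine whose call held in both treatments in the number-adjusted fit (limma adjusted p = 0.00415 and 0.0231) and without any single array. Leaving out all arrays numbered 1 ended the call in tamoxifen-treated cells (limma adjusted p = 0.0564).

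LIF (chr22:30240453-30246759), a cytokine of the IL-6 family known for keeping mouse embryonic stem cells undifferentiated, was above the median signal on all 14 arrays. Its log2 signals were 6.84 and 5.75 in SRC1-siRNA tamoxifen cells, 6.51, 5.95, 6.29 and 5.22 in SRC1-siRNA untreated cells, 4.18, 5.0, 5.01 and 4.29 in control-siRNA tamoxifen cells, and 3.97, 4.99, 5.17 and 5.54 in control-siRNA untreated cells. The groups did not overlap in tamoxifen-treated cells. In untreated cells replicate 4 ran against the others, being the lowest knockdown array and the highest control array. LIF rose by 1.68 ± 0.44 log2 units in tamoxifen-treated cells (3.20-fold, limma adjusted p = 0.0263). This call failed under 7 of 25 alternatives. Among them were the number-adjusted fit (limma adjusted p = 0.113) and leaving out replicate 1 of the SRC1-siRNA tamoxifen group (change 1.13). It also failed, narrowly, without replicate 1 or 4 of the control-siRNA tamoxifen group (limma adjusted p = 0.0536 and 0.0505). In untreated cells the change of 1.08 ± 0.36 did not pass (limma adjusted p = 0.0785), and failed under 23 of 25 alternatives. It was 0.59 without the arrays numbered 1 (limma adjusted p = 0.258), and it passed at 1.33 without replicate 4 of the SRC1-siRNA untreated group (adjusted p = 0.0342) and at 1.54 without the arrays numbered 4 (adjusted p = 0.0275).

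IL11 (chr19:55364382-55370463) is a cytokine of the same family that acts on platelet precursors and in fibrosis. Its mean changes with the knockdown lay below 0, but only its dimmer probe set passed, and only in tamoxifen-treated cells. Its dimmer probe set 206926_s_at gave 2.89 and 2.75 in SRC1-siRNA tamoxifen cells, 2.79, 2.93, 2.93 and 2.94 in SRC1-siRNA untreated cells, 3.12, 2.93, 3.16 and 3.06 in control-siRNA tamoxifen cells, and 3.14, 3.08, 3.02 and 3.11 in control-siRNA untreated cells. All knockdown arrays were below the control arrays of the same treatment, and all 14 arrays were below the median signal. This probe set fell by 0.25 log2 units in tamoxifen-treated cells (limma adjusted p = 0.0411), a call lost in the number-adjusted fit (limma adjusted p = 0.167). It was the 1 cytokine probe set of 17 called lower there, beside 7.7% of all probe sets. In untreated cells it changed by −0.19 ± 0.06 (limma adjusted p = 0.0605). The brighter probe set 206924_at, above the median signal on all 14 arrays, did not pass in either treatment, with −0.22 in tamoxifen-treated cells (limma adjusted p = 0.375) and −0.31 in untreated cells (adjusted p = 0.132). In untreated cells its knockdown and control arrays overlapped, and number 3 was higher with SRC-1 siRNA, by 0.24. The change of 206924_at in untreated cells failed under 24 of 26 alternatives. It was −0.21 without replicate 4 of the control-siRNA untreated group (limma adjusted p = 0.316) and −0.20 without the arrays numbered 4 (adjusted p = 0.394), and it passed at −0.42 without replicate 3 of that group (adjusted p = 0.0410) and at −0.50 without the arrays numbered 3 (adjusted p = 0.0457).

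IL15 (chr4:141636583-141733987), which sustains natural killer cells and memory T cells, had 2 probe sets, both above the median signal on all 14 arrays. Probe set 205992_s_at gave log2 signals of 8.92 and 8.15 in SRC1-siRNA tamoxifen cells, 8.85, 7.98, 7.94 and 8.48 in SRC1-siRNA untreated cells, 6.19, 7.16, 7.52 and 6.20 in control-siRNA tamoxifen cells, and 6.06, 7.18, 7.25 and 6.17 in control-siRNA untreated cells. The groups did not overlap, and the control arrays fell into 2 levels, with replicates 1 and 4 between 6.06 and 6.20 and replicates 2 and 3 between 7.16 and 7.52. The second probe set, 217371_s_at, gave 6.94 and 6.47 in SRC1-siRNA tamoxifen cells, 7.13, 6.56, 6.53 and 6.68 in SRC1-siRNA untreated cells, 4.88, 5.44, 5.69 and 5.14 in control-siRNA tamoxifen cells, and 4.65, 5.50, 5.64 and 4.79 in control-siRNA untreated cells. It again had no overlap between knockdown and control arrays. In untreated cells the probe sets rose by 1.65 ± 0.36 (3.13-fold, limma adjusted p = 0.0120) and 1.58 ± 0.24 log2 units (2.99-fold, limma adjusted p = 0.00150). In tamoxifen-treated cells they rose by 1.77 ± 0.44 (3.40-fold, limma adjusted p = 0.0207) and 1.42 ± 0.29 (2.67-fold, limma adjusted p = 0.00779). The number-adjusted fit ended both tamoxifen calls (limma adjusted p = 0.0931 and 0.0507). For 205992_s_at the tamoxifen call failed under 4 of 26 alternatives, among them that fit and leaving out replicate 1 of the SRC1-siRNA group (change 1.38). Its changes under the alternatives lay between 1.18 and 2.41. The call of 205992_s_at in untreated cells was lost without all arrays numbered 1 (change 1.26, limma adjusted p = 0.0765) or all numbered 4 (change 1.43, adjusted p = 0.0632).

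IL7, the stromal cytokine that developing lymphocytes depend on, gave log2 signals of 4.35 and 3.70 in SRC1-siRNA tamoxifen cells, 5.23, 4.07, 4.27 and 4.52 in SRC1-siRNA untreated cells, 3.18, 4.09, 4.33 and 3.90 in control-siRNA tamoxifen cells, and 3.32, 4.15, 4.22 and 3.41 in control-siRNA untreated cells. In untreated cells replicate 2 of the knockdown lay among the control arrays and replicate 3, at 4.27, just above their highest, 4.22, and in tamoxifen-treated cells replicate 3 lay among them. The control arrays numbered 1 and 4 in untreated cells lay below those numbered 2 and 3. The change was 0.15 ± 0.37 log2 units in tamoxifen-treated cells (limma adjusted p = 0.820) and 0.75 ± 0.30 in untreated cells (limma adjusted p = 0.138), and neither passed. Without the arrays numbered 1 the change in untreated cells was 0.36 (adjusted p = 0.359).

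IL18 (chr11:112143260-112164094), which activates natural killer cells and interferon-gamma production, gave log2 signals of 4.07 and 3.95 in SRC1-siRNA tamoxifen cells, 3.99, 3.52, 3.89 and 3.60 in SRC1-siRNA untreated cells, 3.18, 3.55, 3.08 and 3.45 in control-siRNA tamoxifen cells, and 3.45, 3.35, 3.66 and 3.47 in control-siRNA untreated cells. The groups were apart in tamoxifen-treated cells and overlapped in untreated cells. IL18 rose by 0.70 ± 0.15 log2 units in tamoxifen-treated cells (1.62-fold, limma adjusted p = 0.00964). That call failed under 4 of 25 alternatives, with changes between 0.59 and 0.77. Among the 4 were the number-adjusted fit (limma adjusted p = 0.0754) and leaving out replicate 1 of the SRC1-siRNA tamoxifen group (change 0.64). In untreated cells the change of 0.27 ± 0.12 did not pass (limma adjusted p = 0.185). The 2 changes were not shown to differ (interaction 0.43, limma adjusted p = 0.270).

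IL1A (chr2:112773925-112784493) and IL1B (chr2:112829751-112836779), the classic IL-1 cytokines, stayed near the floor. Their 4 probe sets were below the median signal on all 14 arrays, between 1.88 and 2.93 over all arrays. The brightest probe set of IL1A averaged 2.50 ± 0.19 in SRC1-siRNA tamoxifen cells (SD, n = 2), 2.57 ± 0.13 in SRC1-siRNA untreated cells, 2.64 ± 0.07 in control-siRNA tamoxifen cells and 2.64 ± 0.24 in control-siRNA untreated cells (SD, n = 4 each). That of IL1B averaged 2.22 ± 0.20, 2.21 ± 0.11, 2.10 ± 0.15 and 2.10 ± 0.09 in the same groups. With the knockdown the 4 probe sets changed by −0.07 to 0.11 log2 units in untreated cells (limma adjusted p between 0.484 and 0.849) and by −0.13 to 0.19 in tamoxifen-treated cells (limma adjusted p between 0.413 and 0.646).

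**Figure D2:**
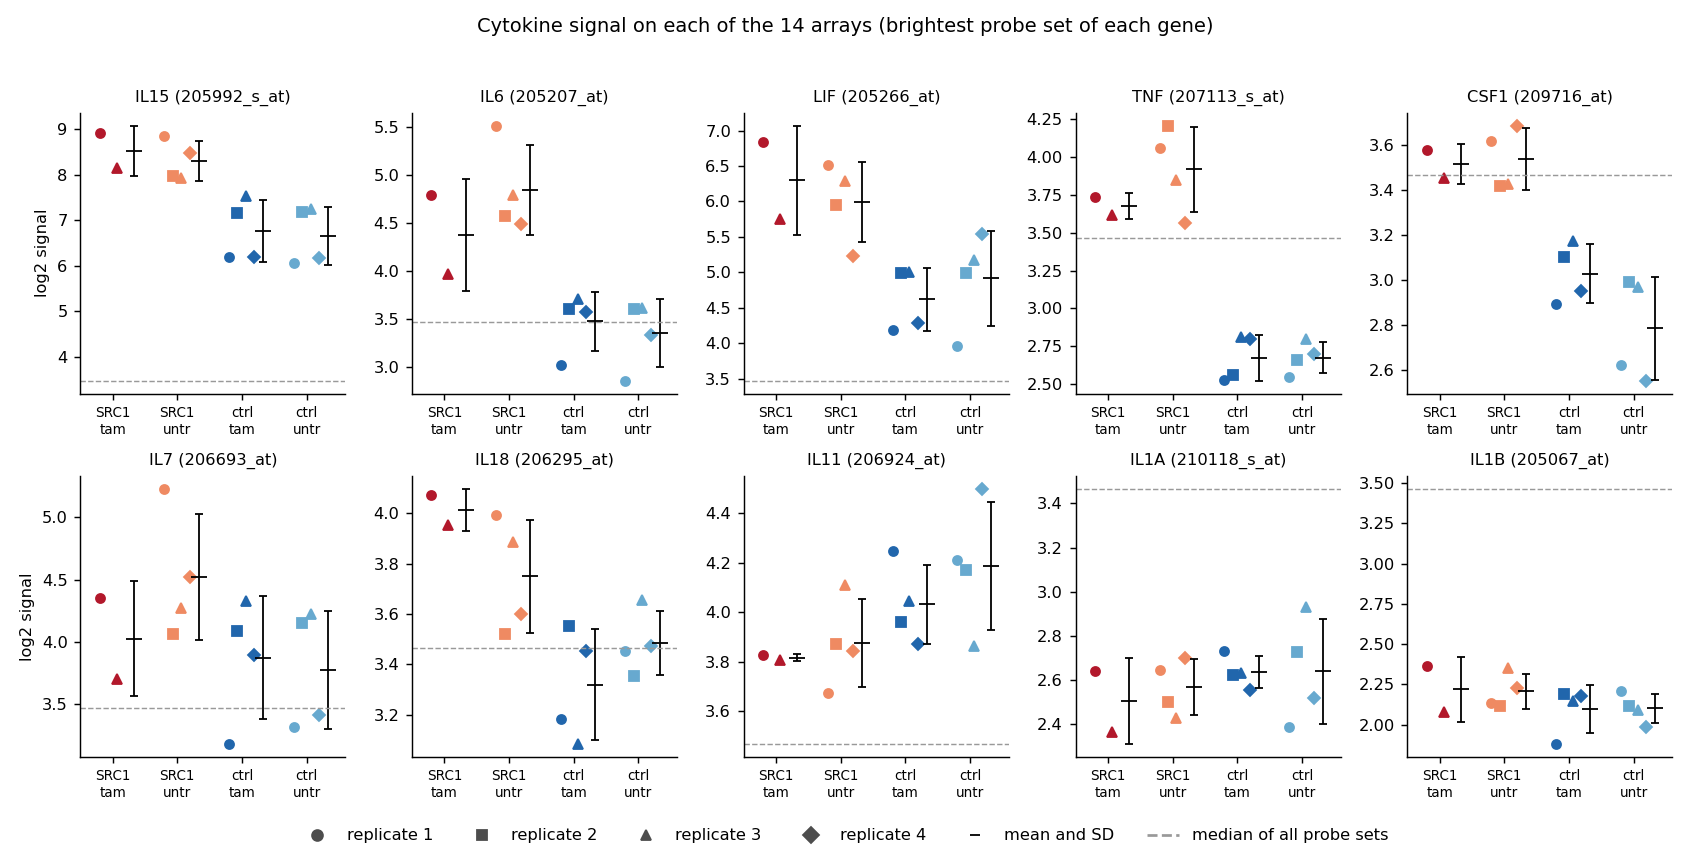
Log2 signal of each cytokine gene by its brightest probe set on each of the 14 arrays, with SRC1-siRNA groups left of control-siRNA groups and tamoxifen left of untreated. Marker shapes are replicate numbers, black bars the mean and SD, and the dashed line the median of all probe sets, 3.47. The y axes differ between panels. IL15, IL6, TNF and CSF1 show no overlap between knockdown and control arrays, while IL1A and IL1B lie under the dashed line throughout.

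Tamoxifen for 2 h, with either siRNA, was accompanied by no passing change in any cytokine. In control-siRNA cells 0 of the 17 probe sets passed with limma, where 0.163% of all probe sets were called. CSF1 209716_at, 1 of the 17, was under 0.05 before adjustment, as were 15.7% of all probe sets, with 0.24 ± 0.11 log2 units (limma adjusted p = 0.292). The changes by brightest probe set lay between −0.30 (LIF) and 0.24 (CSF1). In SRC1-siRNA cells 0 of 17 passed with limma, where 1.51% of all probe sets were called, and 0 were under 0.05 before adjustment, beside 16.8% of all probe sets, with changes between −0.50 (IL7) and 0.30 (LIF). The interaction of knockdown and tamoxifen passed for 0 of 17, where 0.28% of all probe sets were called, and 2 were under 0.05 before adjustment, beside 17.3% of all probe sets, CSF1 207082_at (−0.45, limma adjusted p = 0.233) and IL18 (0.43, adjusted p = 0.270). The comparisons share their control arrays, and the 2 arrays of the SRC1-siRNA tamoxifen group set the precision of the last 2.

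Replicate number was tied to the size of the knockdown difference for several cytokines. For IL15 205992_s_at, SRC1-siRNA minus control-siRNA arrays of the same number in untreated cells differed by 2.79, 0.81, 0.68 and 2.30 log2 units for numbers 1 to 4, and in tamoxifen-treated cells by 2.73 for number 1 and 0.62 for number 3. The mean of both untreated arrays of a number hardly moved, between 7.32 and 7.60, so the numbers with high knockdown signals had low control signals. This was not particular to IL15. The same mean lay between 3.12 and 3.21 for CSF1 209716_at and between 10.69 and 10.86 for NCOA1 209106_at. For LIF it moved more, between 5.24 and 5.73. Over all probe sets the deviations of same-numbered arrays were negatively correlated. Control arrays of the same number were alike with and without tamoxifen for this probe set, at 6.19 and 6.06 for number 1, 7.16 and 7.18 for number 2, 7.52 and 7.25 for number 3, and 6.20 and 6.17 for number 4. IL7 showed 1.92, −0.08, 0.05 and 1.11 in the same order, IL6 2.67, 0.97, 1.18 and 1.15, and LIF 2.54, 0.96, 1.12 and −0.32. TNF was more even, at 1.51, 1.55, 1.05 and 0.86, and CSF1 209716_at gave 1.0, 0.43, 0.46 and 1.14. All 4 numbers were higher with SRC-1 siRNA for IL15, IL6, TNF, CSF1 209716_at and IL18, and 3 of 4 for IL7 and LIF.

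Interferon genes also differed by replicate number, but not all cytokines followed the same numbers. IFNB1, which encodes interferon-beta, differed by 6.45, 2.67, 1.76 and 5.04 log2 units for numbers 1 to 4 in untreated cells, with the mean of both arrays between 7.79 and 7.96. The larger differences were thus in numbers 1 and 4, as for IL15, IL7 and the brightest CSF1 probe set. This was not so for IL6, TNF, LIF or IL18. In number 4 LIF differed by −0.32 and TNF by 0.86, the lowest value of each. IFIT1, an interferon-induced antiviral gene, differed by 0.50, 0.13, 0.04 and 5.77, so that number 4 stood apart. The mean over 19 measured interferon-response genes was 11.6 and 11.0 on the SRC1-siRNA tamoxifen arrays, 11.6, 11.1, 11.0 and 12.7 on the SRC1-siRNA untreated arrays, 9.64, 10.3, 10.5 and 8.98 on the control-siRNA tamoxifen arrays, and 9.57, 10.2, 10.4 and 8.71 on the control-siRNA untreated arrays. Of these genes 12 rose and 0 fell in untreated cells (median change 1.74) and 7 rose and 0 fell in tamoxifen-treated cells (median change 1.13), beside 4.99% and 5.76% of all probe sets higher. In the number-adjusted fit 6 and 2 rose and 0 fell, beside 3.94% and 2.24% of all probe sets called. IFNB1 rose by 3.98 ± 0.67 log2 units in untreated cells (limma adjusted p = 0.00285) and by 3.74 ± 0.82 in tamoxifen-treated cells (adjusted p = 0.0115, and 0.0716 in the number-adjusted fit). MX1, an antiviral GTPase, rose by 1.36 ± 0.15 in untreated cells (limma adjusted p = 3.74e-04) and by 1.09 ± 0.18 in tamoxifen-treated cells (adjusted p = 0.00283). HERC5, an interferon-induced ligase of the ubiquitin-like protein ISG15, and ISG20, an interferon-induced exonuclease, rose by 3.20 ± 0.52 and 2.70 ± 0.40 in untreated cells (limma adjusted p = 0.00226 and 0.00150). In tamoxifen-treated cells they rose by 2.58 ± 0.63 (adjusted p = 0.0188, and 0.0935 in the number-adjusted fit) and 3.21 ± 0.49 (adjusted p = 0.00212). NCOA1 209106_at, by contrast, had its smaller differences in numbers 1 and 4, at −0.82, −1.56, −1.36 and −0.64 for numbers 1 to 4. The part of the interferon response and of the depth of the knockdown in the cytokine changes was not tested.

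**Figure D3:**
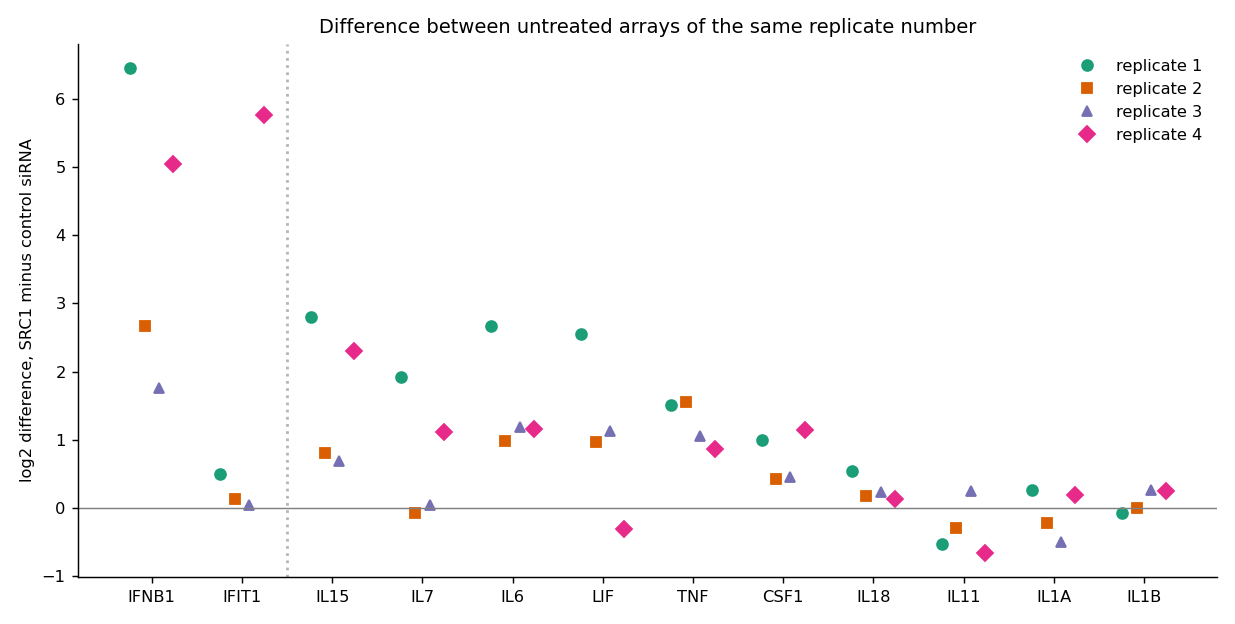
Difference between SRC1-siRNA and control-siRNA untreated arrays of the same replicate number, in log2 units on the y axis, for IFNB1 and IFIT1 (left of the dotted line) and the brightest probe set of each cytokine gene. Markers are replicate numbers 1 to 4. Numbers 1 and 4 lie above numbers 2 and 3 for IFNB1, IL15, IL7 and CSF1, while TNF lies between 0.86 and 1.55 for all numbers.

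Among the receptors of these cytokines, 2 of 15 rose and 1 fell in untreated cells (median change 0.08) and 3 rose and 0 fell in tamoxifen-treated cells (median 0.08), beside 4.99% higher and 5.36% lower of all probe sets in untreated cells and 5.76% and 7.7% in tamoxifen-treated cells. In the number-adjusted fit 2 rose and 0 fell in each treatment, beside 3.94% of all probe sets called in untreated cells and 2.24% in tamoxifen-treated cells. IL7R, the IL-7 receptor alpha chain, averaged 4.28 in SRC1-siRNA tamoxifen cells and 2.77 in control-siRNA tamoxifen cells, and 4.45 in SRC1-siRNA untreated cells and 2.85 in control-siRNA untreated cells. It rose by 1.52 ± 0.26 with tamoxifen and 1.60 ± 0.21 log2 units without (limma adjusted p = 0.00350 and 8.99e-04). IL15RA, which presents IL-15 to neighbouring cells, rose by 0.67 ± 0.20 in tamoxifen-treated cells (limma adjusted p = 0.0389, and 0.126 in the number-adjusted fit) and by 0.76 ± 0.16 in untreated cells (limma adjusted p = 0.00945). IL18R1, the ligand-binding chain of the IL-18 receptor, rose in tamoxifen-treated cells by 1.34 ± 0.25 (4.18 with SRC-1 siRNA and 2.83 with control siRNA, limma adjusted p = 0.00476), and the call was lost without replicate 1 of the SRC1-siRNA tamoxifen group (adjusted p = 0.0853), as were those of IL7R (adjusted p = 0.0528) and IL15RA (adjusted p = 0.225). IL11RA fell in untreated cells, with −0.51 ± 0.14 (limma adjusted p = 0.0320, and 0.102 in the number-adjusted fit). CSF1R, the receptor of CSF1, stayed near the floor, with 2.50 in SRC1-siRNA untreated cells and 2.44 in control-siRNA untreated cells. IL6ST, which encodes gp130, averaged 11.4 in both and changed by −0.03 (limma adjusted p = 0.811).

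Of 6 antagonists and decoys, 1 rose in untreated cells and 0 passed in tamoxifen-treated cells (median changes 0.08 and 0.11), beside 10.4% and 13.5% of all probe sets called. It was IL1RN, the IL-1 receptor antagonist, at 7.86 with SRC-1 siRNA and 7.02 with control siRNA in untreated cells, a change of 0.84 ± 0.19 log2 units (limma adjusted p = 0.0142). Of 14 genes of cytokine maturation and release, 5 rose and 1 fell in each treatment (median changes 0.30 in untreated and 0.20 in tamoxifen-treated cells), beside 10.4% and 13.5% of all probe sets called in untreated and tamoxifen-treated cells. In the number-adjusted fit 3 and 1 rose and 0 fell, beside 3.94% and 2.24% of all probe sets called. CASP4, an inflammatory caspase, rose by 1.32 ± 0.19 in untreated cells (limma adjusted p = 0.00141) and by 1.65 ± 0.24 in tamoxifen-treated cells (adjusted p = 0.00159). AIM2, a sensor of DNA in the cytosol, rose by 0.93 ± 0.18 in untreated cells (limma adjusted p = 0.00648) and by 1.13 ± 0.22 in tamoxifen-treated cells (adjusted p = 0.00690, and 0.0582 in the number-adjusted fit), although its control signals, 2.31 and 2.22, were near the floor. ADAM17, the protease that releases membrane-bound TNF, rose by 0.34 ± 0.05 in untreated cells (limma adjusted p = 0.00149) and by 0.23 ± 0.06 in tamoxifen-treated cells (adjusted p = 0.0298, and 0.174 in the number-adjusted fit). CASP1, which cuts the IL-1β and IL-18 precursors, rose by 0.54 ± 0.13 in untreated cells (limma adjusted p = 0.0230) and by 0.58 ± 0.17 in tamoxifen-treated cells (adjusted p = 0.0342). Its highest group mean was 2.54, near the floor, and both calls were lost in the number-adjusted fit (limma adjusted p = 0.0842 and 0.156).

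Related cytokines had 4 of 29 measured genes rising and 0 falling in untreated cells, and 6 rising and 0 falling in tamoxifen-treated cells (median change 0.06 in each), beside 4.99% and 5.76% of all probe sets higher. In the number-adjusted fit 2 and 1 of the 29 rose and 0 fell, beside 3.94% and 2.24% of all probe sets called in either direction. Whether these small counts differ from those shares was not tested. TNFSF10, which encodes the death ligand TRAIL, averaged 8.61 in SRC1-siRNA tamoxifen cells and 5.39 in control-siRNA tamoxifen cells, and 8.62 in SRC1-siRNA untreated cells and 5.53 in control-siRNA untreated cells. It rose by 3.22 ± 0.78 log2 units with tamoxifen (limma adjusted p = 0.0180, 0.0935 in the number-adjusted fit, and 0.186 without replicate 1 of the SRC1-siRNA tamoxifen group) and by 3.09 ± 0.64 without (limma adjusted p = 0.00864). TNFSF15, another TNF-family ligand, rose by 2.21 ± 0.35 with tamoxifen (limma adjusted p = 0.00228) and by 1.43 ± 0.28 without (adjusted p = 0.00657). TNFSF4 and LTB in untreated cells, and TNFSF4 and TNFSF13 in tamoxifen-treated cells, passed with smaller changes of 0.24 to 0.41, and none of these calls held in the number-adjusted fit (limma adjusted p between 0.0637 and 0.136). Of 9 measured genes that control the decay of cytokine mRNA, 2 rose in untreated cells, ZFP36 by 0.33 ± 0.08 and ZFP36L2 by 0.23 ± 0.06 (limma adjusted p = 0.0166 and 0.0309), and 1 in tamoxifen-treated cells, RC3H1 by 0.30 ± 0.09 (adjusted p = 0.0396), beside 4.99% and 5.76% of all probe sets higher. None of these 3 calls held in the number-adjusted fit (limma adjusted p between 0.0777 and 0.180).

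**Figure D4:**
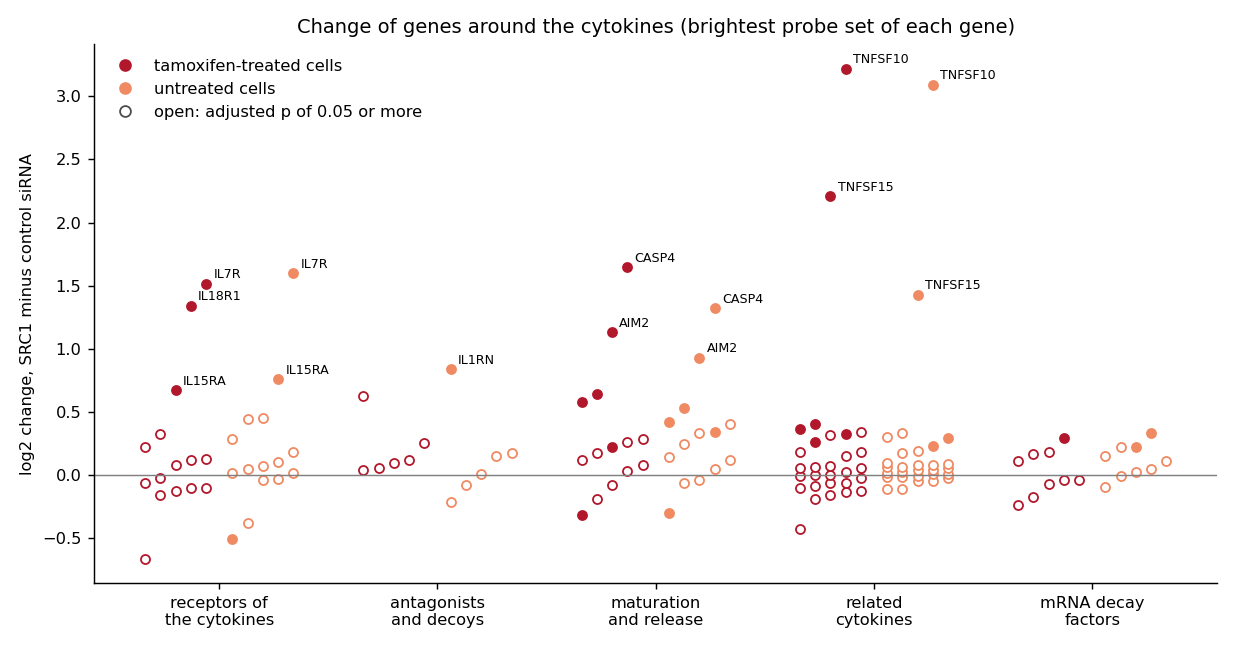
Change of genes around the cytokines with the SRC-1 knockdown, by list on the x axis and in log2 units, SRC1 siRNA minus control siRNA, on the y axis, with tamoxifen-treated cells left of untreated cells in each list. Each point is a gene by its brightest probe set, filled where the adjusted p was under 0.05. The medians of the 5 lists drawn, which leave out the interferon-response genes, lie within 0.30 of 0, with TNFSF10 above 3 in both treatments.

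Across the 14 arrays, the genes whose signal ran most like that of a cytokine were ranked by Pearson r among 12264 genes, for the 6 cytokines with a brightest probe set above the median. The arrays share their groups, so these values describe the pattern only. IL15 was closest to MX2 (r = 0.991), RTP4 (0.989), IFNB1 (0.988), APOL3 (0.987) and CARINH (0.986). IL6 was closest to CGA (r = 0.973), IDO1 (0.969), PPP1R15A (0.966), APCDD1 (0.961) and PMAIP1 (0.959). LIF was closest to FLVCR2 (r = 0.976), ANKRD11 (0.976), USP42 (0.975), MT1H (0.970) and PLA2G4C (0.965). None of the 6 cytokines shared any of its 5 nearest genes with another. IL7 was nearest to FAS (r = 0.942) and SAV1 (0.941), IL18 to ATG2B (0.938) and STAU1 (0.931), and IL11 to PCSK4 (0.929) and SLC15A4 (0.920).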

How the data were processed

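LY2 RNA was amplified with a NuGEN Ovation kit and put on HG-U133 Plus 2.0 arrays of Affymetrix, as the labels' protocols state. The deposited values are log2 signals made by the authors, 1 per probe set and array. The base was inferred from their range, and how the arrays were normalized and summarised is not given in the sources used here. The submitters' processing notes name R 2.9.2. Of 54675 probe sets, 62 array controls were left out, leaving 54613, of which 41091 carried 1 gene symbol, 1801 several and 11721 none. Array medians lay between 3.44 and 3.51, and no 2 arrays held identical values. No further normalization or filter was applied.

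A linear model of 4 group means over 14 arrays was fitted with limma 3.58.1 (R 4.3.3, lmFit and eBayes), with two-sided p-values adjusted by Benjamini-Hochberg over 54613 probe sets and a threshold of 0.05. The script was tested on simulated data. Genes were represented by their brightest probe set. The labels state no block, so the replicate number entered only as an alternative. Deviations of same-numbered arrays from their group means correlated between −0.585 and −0.0421 over 18 pairs. All were negative, with a median of −0.334, so same-numbered arrays did not vary independently in the deposited values. The fit of group means treats the arrays as independent, so its p-values may be too small. Whether the normalization made this pattern was not tested. Other alternatives were quantile normalization, median centring, leaving out dim probe sets, array weights, a fit without the groups not compared, a trended and robust eBayes variance, averaging the probe sets of a gene, and leaving out each array or each number. A group left with 1 array took its spread from the other groups. List genes were named where they passed, up to 4 per list and comparison by smallest p, and the 5 most alike genes per cytokine were found by Pearson r. IFIT1, ITGAM, CSF1R and IL6ST were named after their values were seen. The cytokines and lists were chosen with earlier results of these data known. SRC1-siRNA tamoxifen replicates 2 and 4 were not analysed here.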

Additional observations from a re-analysis of the deposited data

Results flagged for a closer look

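Each cytokine and NCOA1 probe set, the brightest probe set of each list gene named above and the mean of the interferon-response genes were examined in the groups of 4 arrays for an array far from the other 3. These were 141 groups, of which chance gives about 1 in 20, and in 6 of them 1 array stood apart. IL11 206926_s_at was 2.79 on SRC1-siRNA untreated replicate 1, the lowest of its group, where the other arrays lay between 2.93 and 2.94, a gap of 0.921 of the group's range. IL1B 205067_at was 1.88 on control-siRNA tamoxifen replicate 1, again the lowest, where the others lay between 2.15 and 2.19, a gap of 0.865 of the range. Both probe sets were below the median signal on all 14 arrays. IFIT1 stood apart on replicate 4 in all 3 groups of 4 arrays. It was the highest of the SRC1-siRNA untreated group, at 15.53 where the others lay between 12.4 and 12.5 (gap 0.957 of the range), the lowest of the control-siRNA tamoxifen group, at 10.4 where the others lay between 12.2 and 12.4 (gap 0.875), and the lowest of the control-siRNA untreated group, at 9.76 where the others lay between 12.0 and 12.3 (gap 0.872). TNFSF15 was 7.49 on control-siRNA untreated replicate 4, the highest of its group, where the others lay between 6.82 and 6.91 (gap 0.870).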

How the results depend on the processing

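Of 17 cytokine probe sets, 6 passed in untreated cells and 7 in tamoxifen-treated cells. Without dim probe sets the counts were 3 and 4, because 7 cytokine probe sets were then left to test. With the replicate number as a term (replicate block) they were 5 and 1, and the block changed no other cytokine count, all being 0. Over all probe sets the deviations of same-numbered arrays correlated below 0 in all 18 pairs. Same-numbered arrays thus did not vary independently, and the fit without the block may call too many probe sets. Whether the normalization, which is unknown, made this pattern was not tested. For IL15, control arrays of one number were alike with and without tamoxifen. Leaving out 1 array or 1 number gave 4 to 7 in untreated cells and 0 to 8 in tamoxifen-treated cells. The cause of calls lost under the block or without single arrays was not tested. Both tamoxifen comparisons and the interaction gave 0 under every alternative run. Over the 9 passing cytokine changes, 197 of 225 values under alternatives passed and 0 changed sign, and over 34 list-gene changes 691 of 843 passed and 0 changed sign. NCOA1 failed once, in tamoxifen-treated cells without the arrays numbered 3 (−0.85, limma adjusted p = 0.0532). Signs turned only for changes that did not pass. On leaving out arrays or numbers, the log2 change of IL1A with knockdown in untreated cells ranged from −0.18 to 0.071. With knockdown in tamoxifen-treated cells the ranges were IL1A −0.27 to 0.0049, IL1B −0.092 to 0.28, and IL7 −0.41 to 0.63. With tamoxifen in control-siRNA cells they were IL6 −0.043 to 0.28, TNF −0.048 to 0.048, LIF −0.61 to 0.021, IL11 −0.27 to 0.0035, IL1A −0.12 to 0.093, IL1B −0.068 to 0.10, IL7 −0.055 to 0.33, and IL15 −0.15 to 0.30. With tamoxifen in SRC1-siRNA cells they were CSF1 −0.086 to 0.040, LIF −0.25 to 0.95, IL11 −0.14 to 0.031, IL1A −0.20 to 0.073, IL1B −0.16 to 0.20, and IL15 −0.17 to 0.61. For the interaction they were IL11 −0.072 to 0.30, IL1A −0.20 to 0.077, IL1B −0.26 to 0.23, and IL15 −0.27 to 0.51. With the probe sets of a gene averaged the values were 0.027 for IL1A in the knockdown in tamoxifen-treated cells, 0.0077 for IL1B with tamoxifen in control-siRNA cells, 0.0058 for IL1A and −0.047 for IL1B with tamoxifen in SRC1-siRNA cells, and 0.040 for IL1A, −0.055 for IL1B and −0.021 for IL15 in the interaction. Median centring gave 0.0043 for TNF, 0.0011 for IL1A and 0.0016 for IL1B with tamoxifen in control-siRNA cells, −0.018 for IL1B with tamoxifen in SRC1-siRNA cells and −0.020 for IL1B in the interaction, and array weights gave 0.014 for IL1B with tamoxifen in control-siRNA cells.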
